A study of Mus musculus with 18 samples.

Results

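The LIF receptor and Stat3 pathway genes described here are *Lifr*, *Il6st*, *Jak1*, *Stat3*, *Socs3*, *Pim1*, *Pim3* and *Bcl3*. They are 8 of the 18659 genes whose expression was deposited, and they were taken by name. No threshold on a measured value entered the choice, but it was made with earlier results of these data known. All 8 had enough signal to be tested in every comparison. Each library was set against the scrambled library of its own replicate set.

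The study asked how the transcriptome of mouse embryonic stem cells (mESCs) responds to loss of *Stag1*, a gene for a subunit of the cohesin complex that holds DNA loops and sister chromatids together. Male E14 mESCs, an established line, were grown in serum with LIF on gelatin. RNA was depleted of rRNA and sequenced after 24 h of siRNA treatment, and the cells carried no engineered allele. The 16 libraries fall into 3 replicate sets. Scrambled siRNA (scr) gave 1 library in each set. SP, a commercial pool of siRNAs to *Stag1*, gave 3 libraries in set 1, called 1a, 1b and 1c, and 1 library in each of sets 2 and 3. The 3p siRNAs, pooled commercial duplexes against the 3′ end, the 5p siRNA, a single custom duplex against the 5′ end, and SATS, an enzymatically made siRNA mix to the 5′ UTR of a *Stag1* transcript form, gave 1 library each in sets 2 and 3. Per the methods, the catalogue numbers of the 3p duplexes recur among those of SP but for the prefix letter, so SP and 3p may hold the same siRNAs and are not taken as independent reagents. Untreated cells gave 1 library in set 2 and luciferase siRNA gave 1 in set 3. The 2i libraries of the series were not analysed here. The paper describes the RNA-seq replicates of SP, and those of 3p, 5p and SATS, as independent. The sources used here do not say how 1a, 1b and 1c differ or whether the sets came from separate cultures. The p-values thus measure the spread between these samples, which may be technical.

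LIF is the cytokine that keeps mESCs self-renewing in serum. It binds the LIF receptor, encoded by *Lifr*, which pairs with gp130, the product of *Il6st*, and the receptor-bound kinase JAK1 phosphorylates STAT3. STAT3 then enters the nucleus and activates genes of naive pluripotency and of its own control, among them *Socs3*, whose product blocks the receptor complex. In bulk RNA, fewer cells of a type and less RNA per cell cannot be told apart.

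Set 1 stood apart from the other sets. Its 4 libraries held 9023224 to 14040830 reads on genes, and *Rn45s*, the rRNA precursor, took 69.2% to 79.1% of them. The 12 libraries of sets 2 and 3 held 32137666 to 45660840 reads, with 14.7% to 23.9% on *Rn45s*. The 8 genes had 39 to 856 reads per library in set 1 and 434 to 5824 in sets 2 and 3. Values below are reads divided by the size factor of the library, called normalized values. *Stag1* itself stood at 25.4%, 31.1% and 32.8% of scr in SP libraries 1a, 1b and 1c. In sets 2 and 3 it stood at 17.5% and 21.6% with SP, 17.3% and 20.9% with 3p, and 19.0% and 23.5% with 5p. SATS left 49.7% and 50.5%, so it lowered *Stag1* less than the other reagents did. Summed values of 8 mESC markers ran from 24942 to 58656 over all libraries, against 84 to 5693 for 7 fibroblast markers, 170 to 589 for 7 primitive endoderm markers and 338 to 1530 for 6 trophoblast markers. No marker of these lists was at 0 in every library.

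The clearest difference lay in the receptor. *Lifr* was lower than scr in every library of SP, 3p and SATS, and it was at the scr level in both 5p libraries. *Pim1* was lowest in the 5p library within sets 2 and 3, and *Stat3* and *Socs3* were highest there. *Il6st* and *Jak1* stayed within 83.7% to 120.4% of scr in the knockdowns of sets 2 and 3. *Bcl3* was lower in every library of set 3 than in any of set 2, and *Pim3* was low with SP in set 1 alone.

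**Figure D1:**
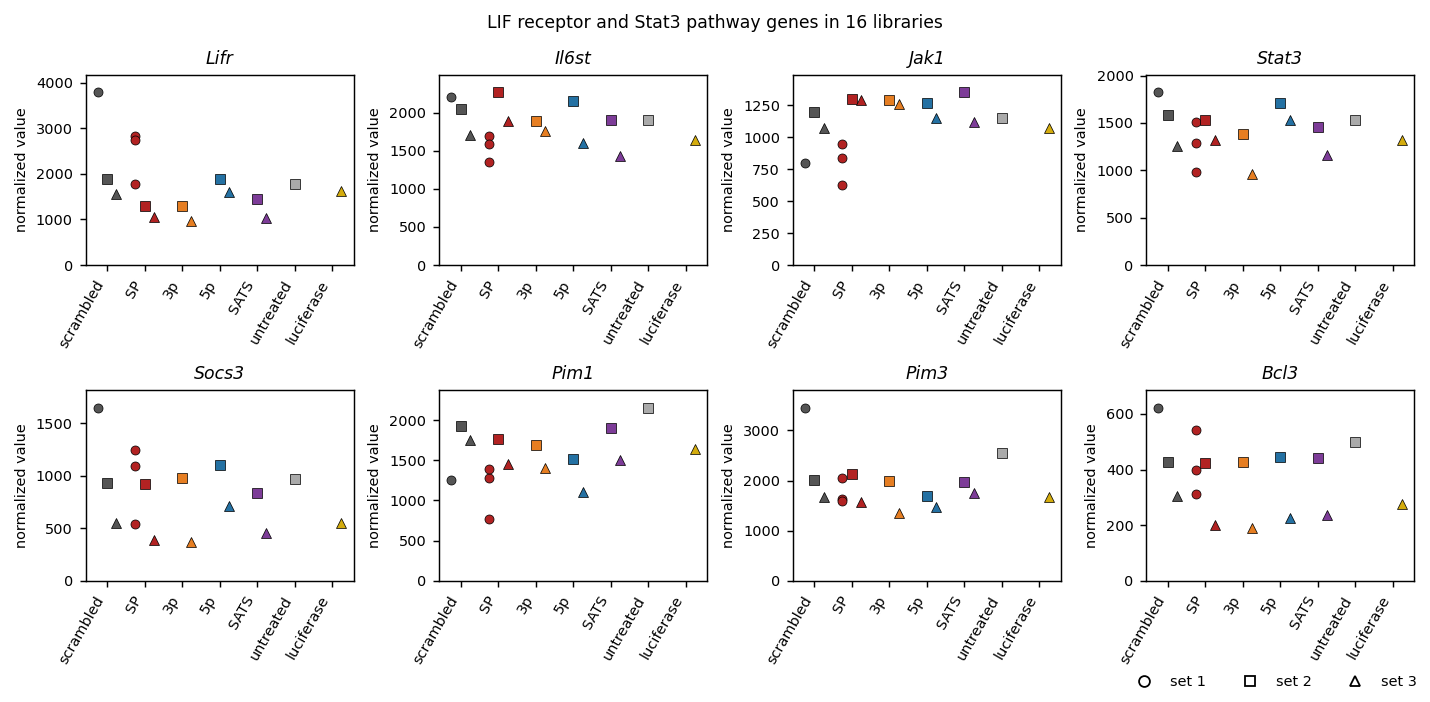
Normalized value (linear axis from 0) of each of the 8 genes in all 16 libraries, by treatment on the horizontal axis, with circles for set 1, squares for set 2 and triangles for set 3. *Lifr* lies between 976 and 1439 in SP, 3p and SATS of sets 2 and 3, and between 1557 and 1886 in scr, 5p, untreated and luciferase libraries of those sets.

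Tests were run on log2(normalized value + 1) with limma and Benjamini-Hochberg adjustment over all genes, first without and then with the replicate set as a block. Without the block 0 of the 8 genes were called in any comparison with limma, and also 0 with edgeR and with DESeq2 on the recovered reads, where 0% to 0.0121% and 0.00626% to 0.54% of all genes were called. At an unadjusted p under 0.05 limma without the block gave 1 of the 8 genes for SP in sets 2 and 3, 1 for 3p, 1 for 5p, 2 for 5p against 3p and 0 for SATS and for SP over 3 sets. The share of all genes at that p was 2.49% for SP, 1.73% for 3p, 3.63% for 5p, 4.09% for 5p against 3p, 3.94% for SATS and 0.526% for SP over 3 sets. The share of all genes called without the block was 0.00606% for SP, 0.00606% for 3p, 0.0121% for 5p, 0% for SATS and 0% for 5p against 3p, and it was 0% for SP over 3 sets.

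The set numbers pair the samples, so the fit with the block is given beside it. With the block, *Lifr* was the 1 gene of the 8 called for SP in sets 2 and 3, where 0.746% of all genes were called. It was also the 1 gene called for 3p (0.285% of all genes) and for SATS (2.64% of all genes). *Pim1* was the 1 gene called for 5p (2.37% of all genes). *Lifr* and *Stat3* were the 2 genes called for 5p against 3p (3.26% of all genes). At an unadjusted p under 0.05, limma with the block gave 4 of the 8 for SP in sets 2 and 3. It gave 4 for 3p, 1 for SATS, 3 for 5p and 4 for 5p against 3p. The share of all genes at that p was 12.5%, 10.4%, 18.8%, 15.7% and 15.8% in the same order. For SP over 3 sets the block gave 0 of the 8 and 0% of all genes with limma, and 3 of the 8 at an unadjusted p under 0.05, where 5.85% of all genes passed. On the recovered reads with the block, edgeR and DESeq2 each called 1 of the 8 there, *Lifr* in both cases, against 0.413% and 0.313% of all genes. The 4 comparisons against scr share the scr libraries, and SP and 3p share catalogue numbers, so they are not independent of each other. The medians of the 8 log2 fold changes were −0.09 for SP, −0.25 for 3p, −0.14 for SATS and 0.00 for 5p, and the median over all genes tested lay between 0.00 and 0.01 in these comparisons.

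*Lifr* (mm10 chr15:7090614-7197489, + strand) encodes the chain that binds LIF. In set 1 its normalized value was 3797 with scr and 2835, 2753 and 1779.8 with SP (1a, 1b and 1c). In set 2 it was 1886 with scr, 1300.2 with SP, 1289.6 with 3p, 1439 with SATS and 1879 with 5p. In set 3 it was 1557 with scr, 1060.1 with SP, 976 with 3p, 1036 with SATS and 1595 with 5p. The untreated library of set 2 (1774) and the luciferase library of set 3 (1635) were at 94.0% and 105% of scr, next to 5p and above every SP, 3p and SATS library of their sets. In sets 2 and 3 the highest SP, 3p or SATS value (1439) was below the lowest of the scr, 5p, untreated and luciferase values (1557), so these groups did not overlap. Of all genes 0.267% lay below in the same way, a split of the reagents made after the *Lifr* values had been seen.

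With SP, *Lifr* thus stood at 46.9% to 74.7% of scr in 5 of 5 libraries, and library 1c was the lowest. With the block, *Lifr* fell by 0.55 on the log2 scale with SP in sets 2 and 3 (SE 0.08, limma adjusted p = 0.00667). It fell by 0.61 with 3p (SE 0.08, limma adjusted p = 0.00503). It fell by 0.49 with SATS (SE 0.08, limma adjusted p = 0.0153), the reagent that lowered *Stag1* least. With 5p its difference from scr was 0.01 (95% interval −0.16 to 0.18, limma adjusted p = 0.958). Without the block these differences had the same sizes with an SE of 0.21. Over all 3 sets the SP difference was −0.57 (SE 0.07 with the block, limma adjusted p = 0.316). There edgeR with the block, on reads summed over 1a, 1b and 1c, gave −0.54 (edgeR adjusted p = 0.0052).

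Single libraries decided whether *Lifr* passed the threshold against scr, while the size of the difference moved little. With the block, the SP call was lost without scr of set 2, scr of set 3, SP of set 2 or SP of set 3 (limma adjusted p = 0.0854, 0.196, 0.0913 and 0.0823). The 3p call was lost without scr of set 2, scr of set 3 or 3p of set 3 (0.096, 0.186 and 0.0755), and the SATS call without scr of set 2, scr of set 3 or SATS of set 3 (0.0898, 0.242 and 0.316). The log2 differences stayed between −0.65 and −0.40 in all of these *Lifr* fits. Counting error of a *Lifr* ratio was 0.03 to 0.04 (SE, log2) in sets 2 and 3 and 0.08 to 0.11 in set 1.

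The 5p libraries were also set against the other reagents of their own set. *Lifr* in the 5p library was 1.45, 1.46 and 1.31 times its value with SP, 3p and SATS in set 2, and 1.50, 1.63 and 1.54 times in set 3. The log2 difference between 5p and 3p was 0.63 with the block (SE 0.08, limma adjusted p = 8.8e-04), and *Lifr* stayed called without any 1 of the 4 libraries (limma adjusted p = 0.00233 to 0.0286). *Stag1* differed by 0.15 between 5p and 3p (SE 0.10, limma adjusted p = 0.489).

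**Figure D2:**
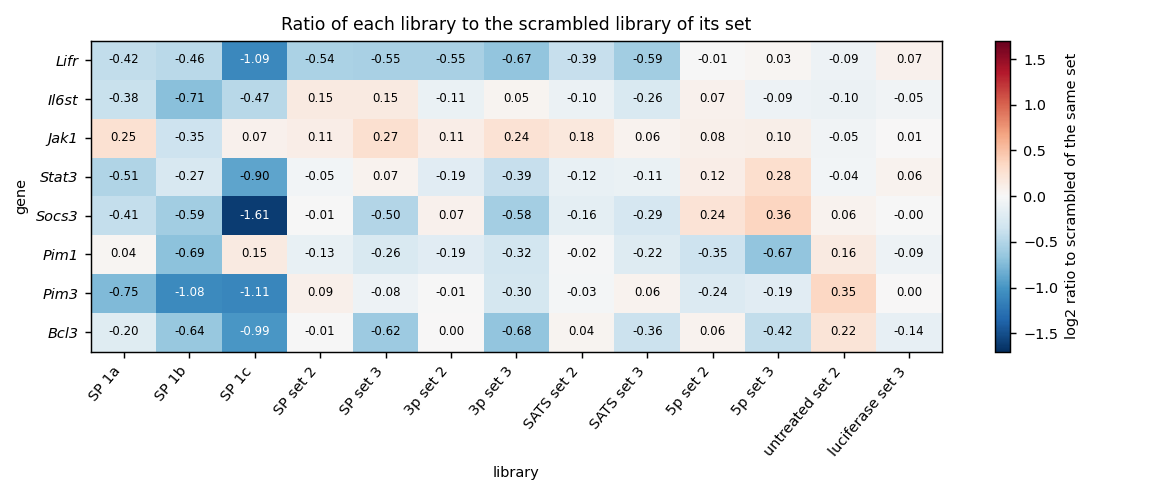
Log2 ratio of the normalized value in each of 13 libraries (columns) to the scr library of the same set, for the 8 genes (rows), in blue for lower and red for higher. The *Lifr* row lies between −1.09 and −0.39 in the SP, 3p and SATS libraries and between −0.09 and 0.07 in 5p, untreated and luciferase libraries.

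*Il6st* (mm10 chr13:112464070-112510086, + strand) encodes gp130, the signalling chain shared by receptors of the IL-6 family. In set 1 its value was 2203 with scr and 1692, 1351 and 1587 with SP (1a, 1b and 1c), so that all 3 SP libraries lay below scr. In set 2 it was 2048 with scr, 2272 with SP, 1894 with 3p, 1909 with SATS and 2150.0 with 5p. In set 3 it was 1704 with scr, 1891 with SP, 1764 with 3p, 1426 with SATS and 1606 with 5p. SP was thus at 61.3% to 76.8% of scr in set 1 and at 111% of scr in both other sets. The SP difference with the block was 0.15 in sets 2 and 3 (95% interval −0.03 to 0.33, limma adjusted p = 0.504) and −0.07 over 3 sets (−0.41 to 0.27, limma adjusted p = 0.893). The 5p and 3p libraries differed in *Il6st* by 0.02 (−0.16 to 0.21, limma adjusted p = 0.937).

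*Jak1* (mm10 chr4:101152367-101265282, − strand) encodes the main kinase bound to the receptor. In set 1 its value was 797 with scr and 949.6, 627 and 838 with SP. In set 2 it was 1197 with scr, 1295 with SP, 1294 with 3p, 1355 with SATS and 1267 with 5p, and in set 3 it was 1069, 1287, 1262, 1115 and 1147 in the same order. *Jak1* was above scr in all 8 knockdown libraries of sets 2 and 3, at 104% to 120.4% of scr, and in 2 of 3 in set 1. With the block the log2 differences were 0.19 (SP), 0.18 (3p), 0.12 (SATS) and 0.09 (5p), each with an SE of 0.08, and none was called (limma adjusted p = 0.359 to 0.636). *Jak1* overlaps *Raver2* on the opposite strand. The methods state counting by strand for paired-end reads, and the read type of each library was not given in the sources used here.

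*Stat3* (mm10 chr11:100885098-100939540, − strand) encodes the transcription factor of the pathway and overlaps *Stat5a* on the opposite strand. In set 1 its value was 1828 with scr and 1283, 1512 and 983 with SP. In set 2 it was 1582 with scr, 1528 with SP, 1384 with 3p, 1453 with SATS and 1714 with 5p. In set 3 it was 1259 with scr, 1318 with SP, 963 with 3p, 1164 with SATS and 1531 with 5p. The 5p library was the highest of its set for *Stat3* in both sets, untreated (1534) and luciferase (1315) included, and 3p was the lowest.

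Against scr no *Stat3* difference was called. With the block it was 0.20 for 5p (SE 0.09, limma adjusted p = 0.286), −0.29 for 3p (SE 0.09, limma adjusted p = 0.227), −0.12 for SATS and 0.01 for SP. With untreated and luciferase added to the controls, *Stat3* with 3p came under the threshold (−0.29, limma adjusted p = 0.0495, with 1.31% of all genes called). *Stat3* was higher in 5p than in 3p by 0.49 with the block (SE 0.09, limma adjusted p = 0.00747), with ratios of 1.24 in set 2 and 1.59 in set 3. The call was lost without 3p of set 3 (0.35, limma adjusted p = 0.161) and without 5p of set 3 (0.40, limma adjusted p = 0.174). The *Stat3* value with 5p was 1.12 and 1.18 times that with SP and SATS in set 2 and 1.16 and 1.32 times in set 3.

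**Figure D3:**
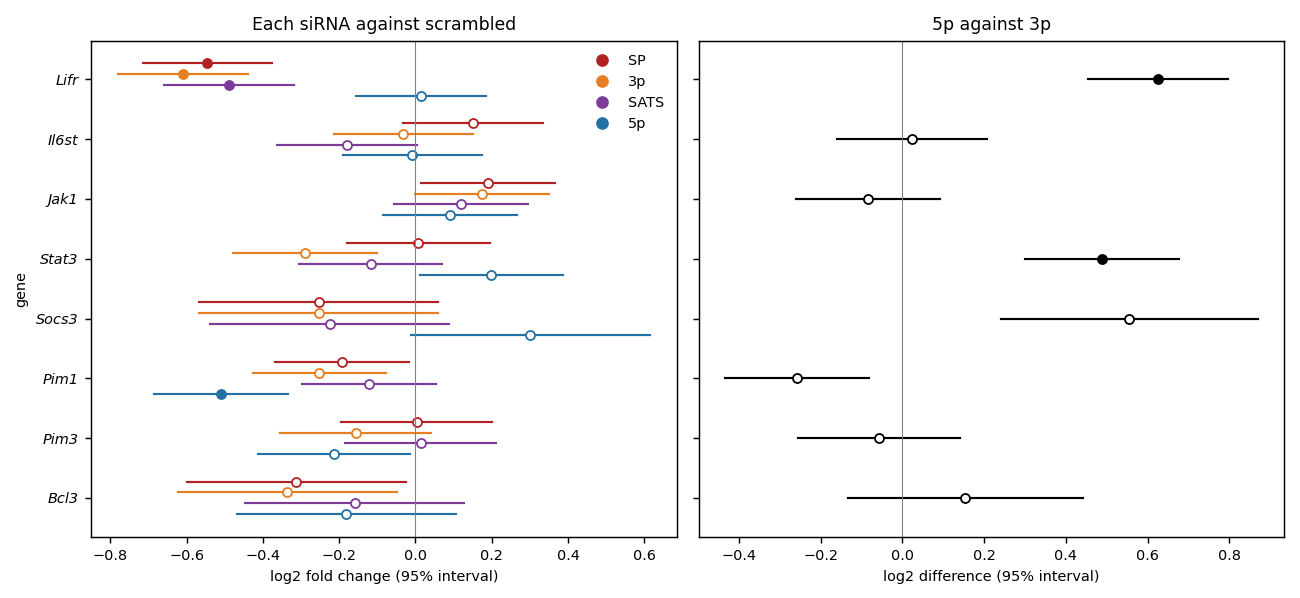
Log2 fold change with its 95% interval for each of the 8 genes in sets 2 and 3, from limma with the replicate set as a block, for each siRNA against scr (left) and for 5p against 3p (right). Filled points have an adjusted p under 0.05, and they are *Lifr* with SP, 3p and SATS, *Pim1* with 5p, and *Lifr* and *Stat3* for 5p against 3p.

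*Socs3* (mm10 chr11:117966079-117970047, − strand) is a direct STAT3 target whose product inhibits the gp130 complex. Its RefSeq promoter (GRCm38.p6, 250 bases before to 50 after the start site) was the 1 promoter among those of the 8 genes that holds the letters TTCNNNGAA, the pattern that STAT factors bind, which reads the same on both strands. The window around it is shown 5′ to 3′ on the − strand, with the pattern in capitals, because *Socs3* is commonly used as a readout of the pathway.
Socs3 promoter, chr11:117969502-117969530: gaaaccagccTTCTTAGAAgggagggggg
The pattern starts 154 bases before the RefSeq start site. The window lies inside the GENCODE span of *Socs3* given above, so the 2 annotations place the start differently. Of all 32851 promoters there 8.30% hold the pattern, and of 13429 genes of the expression table with a promoter 8.25% do. This is a match of letters and not a measured binding site.

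*Socs3* values in set 1 were 1647 with scr and 1241, 1097 and 539.6 with SP, and library 1c was at 32.8% of scr. In set 2 they were 932 with scr, 926 with SP, 977 with 3p, 834 with SATS and 1099 with 5p. In set 3 they were 554 with scr, 392 with SP, 371 with 3p, 453 with SATS and 713 with 5p. The 5p library was the highest of each set, at 118% and 129% of scr, while untreated and luciferase were at 104% and 99.8%.

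All 5 SP libraries had less *Socs3* than scr, but in set 2 the value was 99.4% of scr. No comparison of *Socs3* with scr was called. With the block the differences were −0.25 (SP), −0.25 (3p), −0.22 (SATS) and 0.30 (5p), each with an SE of 0.15 (limma adjusted p = 0.339 to 0.577). Between 5p and 3p the *Socs3* difference was 0.56 (95% interval 0.24 to 0.87, limma adjusted p = 0.058). DESeq2 on the reads with the block placed it under the threshold (0.53, adjusted p = 0.0152, with 3.61% of all genes called), and edgeR did not. Without 3p of set 2 or without 5p of set 2 the limma difference was 0.82 and 0.78. With the block and each of the 4 libraries left out in turn, this difference ran from 0.29 to 0.82. The *Socs3* value with 5p was 1.19, 1.13 and 1.32 times that with SP, 3p and SATS in set 2 and 1.82, 1.92 and 1.57 times in set 3.

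*Pim1* (mm10 chr17:29490753-29496112, + strand) and *Pim3* encode serine/threonine kinases induced by STAT3 that promote survival and growth. *Pim1* values in set 1 were 1252 with scr and 1283, 775 and 1393 with SP. In set 2 they were 1932 with scr, 1769.6 with SP, 1695 with 3p, 1903 with SATS and 1511 with 5p. In set 3 they were 1747 with scr, 1459 with SP, 1404 with 3p, 1498 with SATS and 1101 with 5p. *Pim1* was lowest in the 5p library of each set, at 78.2% and 63.0% of scr, with untreated at 112% and luciferase at 94.0%.

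*Pim1* fell by 0.51 with 5p in the fit with the block (SE 0.08, limma adjusted p = 0.00469). The call was lost without scr of set 3 (−0.41, limma adjusted p = 0.162) and without 5p of set 3 (−0.41, limma adjusted p = 0.112). SP, 3p and SATS gave *Pim1* differences of −0.19, −0.25 and −0.12 (limma adjusted p = 0.348, 0.265 and 0.456). The *Pim1* value with 5p was 0.854, 0.891 and 0.794 times that with SP, 3p and SATS in set 2 and 0.754, 0.784 and 0.735 times in set 3. Between 5p and 3p the *Pim1* difference was −0.26 (limma adjusted p = 0.115). In both sets the 5p library was thus above the SP, 3p and SATS libraries for *Lifr*, *Stat3* and *Socs3* and below them for *Pim1*. The share of all genes with such an order of the libraries was not counted.

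*Pim3* (mm10 chr15:88862186-88865726, + strand) had values of 3455 with scr and 2059, 1634 and 1603 with SP in set 1. In set 2 it had 2005 with scr, 2134 with SP, 1992 with 3p, 1964 with SATS and 1702 with 5p, and in set 3 it had 1676, 1583, 1357, 1744 and 1468 in the same order. SP was at 46.4% to 59.6% of scr in set 1 but at 106% and 94.4% in sets 2 and 3, so set 1 alone gave the low values. The untreated library of set 2 (2549.8) was above every other library of that set. No *Pim3* difference was called, and with the block the intervals in sets 2 and 3 were −0.19 to 0.20 for SP and −0.41 to −0.02 for 5p (limma adjusted p = 0.993 and 0.276).

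*Bcl3* (mm10 chr7:19808462-19822770, − strand) encodes an atypical IκB protein and a STAT3 target in mESCs. It was the gene with the fewest reads of the 8. Its values in set 1 were 623 with scr and 541, 399 and 314 with SP. In set 2 all 5 siRNA libraries lay between 425 and 446. In set 3 *Bcl3* was 305 with scr, 199 with SP, 191 with 3p, 238 with SATS and 228 with 5p, and 277 with luciferase. The 4 *Stag1* reagents left 62.6% to 77.8% of scr in set 3 and 99.2% to 104% in set 2. With the block the *Bcl3* differences from scr were −0.31 (SP), −0.34 (3p), −0.18 (5p) and −0.16 (SATS), each with an SE of 0.13, and none was called (limma adjusted p = 0.355 to 0.559). Without the block the SE was 0.55.

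Levels differed between sets as well as between reagents. *Socs3* ran from 834 to 1099 in set 2 and from 371 to 713 in set 3, without overlap, and *Bcl3* from 425 to 500 and from 191 to 305, also without overlap. Of all genes 26.1% did not overlap between these sets, and for 15.1% set 3 was the lower one. *Lifr*, *Stat3*, *Pim1*, *Pim3*, *Il6st* and *Jak1* overlapped between these sets. Per kilobase of exon sequence (GENCODE vM21), mean normalized values in the 3 scr libraries were 980.2 ± 390.1 (SD, n = 3) for *Pim3*, 489 ± 104 for *Pim1*, 361 ± 192 for *Socs3*, 224 ± 112 for *Lifr*, 183 ± 64.7 for *Bcl3*, 179 ± 23.0 for *Il6st*, 163 ± 30.0 for *Stat3* and 141 ± 28.3 for *Jak1*. In that order the scr ranges of *Pim3* (691 to 1424) and *Pim1* (372 to 575) did not overlap, and those of all later neighbours did.

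Some of the 8 genes moved together over the libraries. With each set's mean removed, the correlation (Pearson r over 16 libraries, a description in which libraries of a set share their mean) of *Socs3* was 0.86 with *Stat3*, 0.85 with *Lifr* and 0.80 with *Bcl3*, and it was −0.28 with *Pim1*. Over the 12 libraries of sets 2 and 3 these were 0.76, 0.77, 0.55 and −0.35. With *Jak1*, *Il6st* and *Pim3* the r of *Socs3* was −0.24, 0.26 and 0.54 over 16 libraries and −0.59, −0.22 and 0.01 over 12. Among 11058 genes with a mean normalized value of at least 50, those most like *Socs3* over 16 libraries were *Zfp42* (r = 0.97), the naive marker also called Rex1, *Glyctk* (0.96), *Foxn4* (0.96), *Khdc3* (0.95) and *Itgb7* (0.95). Over 16 libraries the median gene had r = −0.03 and the 95th percentile was 0.74, and these were not taken over 12. Over 12 libraries 2 of these 5, *Zfp42* and *Foxn4*, were still among the 5 most like *Socs3*. *Zfp42* is in the mESC marker list, whose sum in sets 2 and 3 ran from 24942 to 36348 and in the 5p libraries was 32328 and 32910. Its part in the *Socs3* values was not tested.

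A wider list of 53 genes of LIF and JAK/STAT signalling was examined by role, of which 52 could be tested and *Il6* was not analysed here. With the block, limma called 0 higher and 1 lower with SP in sets 2 and 3, 0 with 3p, 0 higher and 2 lower with SATS, and 1 higher and 3 lower with 5p. For 5p against 3p it called 2 higher and 3 lower. Without the block it called 0 in each of these 5 comparisons, with at most 2 of the 52 at an unadjusted p under 0.05. With the block 11 of the 52 had an unadjusted limma p under 0.05 for SP, 12 for 3p and 13 for SATS. For 5p there were 16, and for 5p against 3p 14. In the same order 12.5%, 10.4%, 18.8%, 15.7% and 15.8% of all genes passed. The shares of all genes called are those given above. The medians of the list were −0.04 with SP, −0.03 with 3p, −0.04 with SATS and −0.04 with 5p. Among 10 ligands and other receptors and 8 other kinases and STATs, 0 were called with the block against scr or for 5p against 3p, with at most 2 of either group at an unadjusted p under 0.05, where 10.4% to 18.8% of all genes passed in sets 2 and 3.

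The adaptors and inhibitors that were called are *Ptpn11*, *Socs2* and *Pik3r1*. *Ptpn11* encodes the phosphatase SHP2, which docks on gp130 and links it to the MAPK branch. It was at 71.3% and 70.8% of scr with SATS and at 76.3% and 70.9% with 5p in sets 2 and 3, and at 93.5% to 93.9% with SP and 3p. With the block *Ptpn11* fell by 0.49 with SATS (limma adjusted p = 0.013) and by 0.44 with 5p (limma adjusted p = 0.00466). In set 1 the SP libraries had 111% to 140.0% of scr.

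*Socs2*, a relative of *Socs3* that restrains growth hormone signalling, was at 69.4% and 62.7% of scr with 5p and at 77.7% to 100.5% with the other reagents in sets 2 and 3. It fell by 0.60 with 5p (limma adjusted p = 0.00463 with the block) and was lower in 5p than in 3p, with a difference of −0.39 (limma adjusted p = 0.0386). *Pik3r1*, the regulatory subunit of PI3K, was at 149% and 126% of scr with 5p and rose by 0.45 (limma adjusted p = 0.0326 with the block). It was also above scr with SP (109% to 122% over 5 libraries) and with 3p (111% and 108%). SATS was at 112% and 85.2%, untreated at 112% and luciferase at 83.6%.

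Of 14 targets of STAT3, 4 were called in at least 1 comparison with scr or of 5p with 3p. The medians of the 14 in sets 2 and 3 were −0.24 with SP, −0.24 with 3p, −0.13 with SATS and −0.15 with 5p. In the same order 3, 4, 5 and 3 of the 14 were above scr. With the block 8, 8, 6 and 6 of them had an unadjusted limma p under 0.05, against 12.5%, 10.4%, 18.8% and 15.7% of all genes. *Tfcp2l1*, a transcription factor of naive pluripotency, was lower than scr in every knockdown library, at 29.4% to 43.4% with SP in set 1 and at 62.3% to 85.2% in sets 2 and 3. Untreated and luciferase were at 101% and 93.9%. With the block *Tfcp2l1* fell by 0.49 with SP (limma adjusted p = 0.019) and by 0.58 with SATS (limma adjusted p = 0.0131), and the differences with 3p and 5p were −0.39 and −0.32 (limma adjusted p = 0.0834 and 0.0718). With 5p *Tfcp2l1* was at 75.3% and 85.2% of scr and *Lifr* at 99.6% and 102%, and these genes were not tested against each other. The 5p and 3p libraries differed in *Tfcp2l1* by 0.07 (limma adjusted p = 0.764).

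*Junb*, an AP-1 subunit whose gene overlaps *Prdx2* on the opposite strand, was at 81.4% and 65.8% of scr with 5p and fell by 0.45 (limma adjusted p = 0.0475 with the block). It was also lower in 5p than in 3p, with a difference of −0.48 (limma adjusted p = 0.0278). *Sgk1*, a kinase downstream of PI3K, was higher in 5p than in 3p by 0.32 (limma adjusted p = 0.0311). It was at 106% and 114% of scr with 5p and at 92.0% and 84.0% with 3p. SP was at 86.2% and 82.9% in these sets, SATS at 105% and 103%, untreated at 107% and luciferase at 99.8%. *Pramel7*, which sustains naive pluripotency, was also higher in 5p than in 3p, by 1.60 (limma adjusted p = 0.0141). Its normalized values were only 21.0 and 7.40 with 5p and 1.76 to 9.65 in the scr, SP, 3p and SATS libraries of these sets. It had 44 and 16 reads with 5p and 15 and 4 with 3p. The luciferase control of set 3 was at 216% of scr, with 10 reads against 5.

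Single libraries decided whether these genes of the wider list passed the threshold, while the differences moved less. With the block, each call against scr or for 5p against 3p of *Ptpn11*, *Socs2*, *Pik3r1*, *Tfcp2l1*, *Junb*, *Sgk1* and *Pramel7* was lost without the SP, SATS or 5p library of set 3 (limma adjusted p = 0.0912 to 0.422). The calls against scr were also each lost without either scr library (0.0624 to 0.389), and those of *Tfcp2l1* with SP and *Pik3r1* with 5p also without the knockdown library of set 2 (0.102 and 0.147). The calls for 5p against 3p were each also lost without at least 1 of the 3p libraries, and those of *Pramel7* and *Socs2* also without 5p of set 2 (0.0574 and 0.0702). In all of these fits the sign was kept. With the block and each library left out in turn, *Tfcp2l1* stayed between −0.55 and −0.44 with SP and between −0.69 and −0.47 with SATS, and *Ptpn11* between −0.51 and −0.48 with SATS. With 5p *Ptpn11* stayed between −0.50 and −0.39, *Socs2* between −0.65 and −0.55, *Pik3r1* between 0.35 and 0.56 and *Junb* between −0.58 and −0.32. For 5p against 3p *Ptpn11* stayed between −0.40 and −0.29, *Socs2* between −0.53 and −0.24, *Junb* between −0.61 and −0.35, *Sgk1* between 0.24 and 0.40 and *Pramel7* between 1.56 and 1.65.

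**Figure D4:**
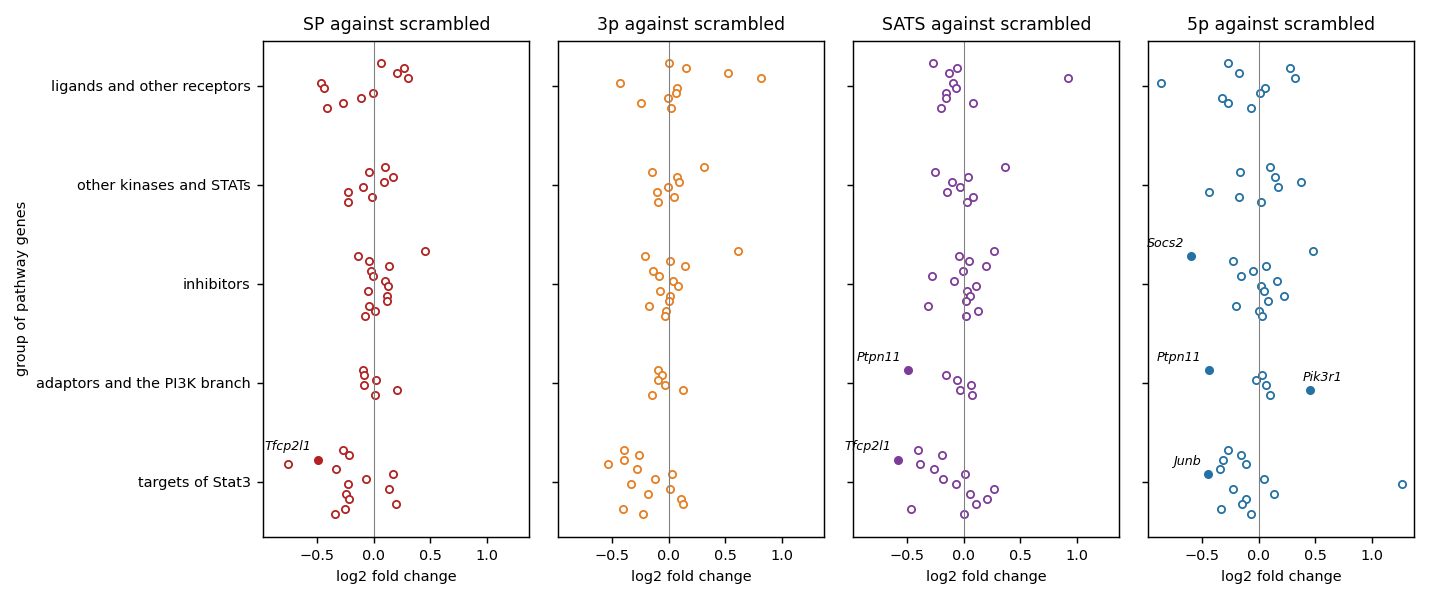
Log2 fold change against scr in sets 2 and 3 (horizontal axis, limma with the replicate set as a block) of the 52 tested genes of the wider pathway list, in rows by role, with 1 panel per siRNA. Filled and named points have an adjusted p under 0.05, and they are *Tfcp2l1* with SP, *Ptpn11* and *Tfcp2l1* with SATS, and *Socs2*, *Ptpn11*, *Pik3r1* and *Junb* with 5p.

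In the 5p panel the called genes of the wider list carried both directions. The letters GTGGAAG, which pair with the seed of 1 strand of the 5p duplex, occur 2 times each in the annotated 3′ UTRs of *Ptpn11* and *Socs2*, 3 times in that of *Lifr*, and 1 time each in those of *Stag1* and *Tfcp2l1*. They do not occur in those of *Pim1*, *Junb*, *Pik3r1*, *Stat3*, *Socs3* or the other genes of the 8. Of 10479 genes with an annotated 3′ UTR and a mean normalized value of at least 50, 19.4% hold these letters. The longest annotated 3′ UTRs of these genes ran from 410 bases (*Bcl3*) to 7734 (*Tfcp2l1*), and the share takes no account of length. Of the genes with these letters, *Ptpn11*, *Socs2* and *Tfcp2l1* were below scr in both 5p libraries, and *Lifr* was at 99.6% and 102%. *Pim1* and *Junb*, without the letters, were also below scr there. Which strand of the duplex is loaded was not given in the sources used here. The part of these letters in the differences was not tested.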

How the data were processed

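The 16 libraries of mESCs grown in serum were grouped by the treatment and set number in the labels. The authors aligned reads to mm10 with HISAT2 and used featureCounts to obtain counts per gene. They deposited a normalized signal for all sets, each count divided by 1 DESeq2 (1.14.1) size factor per library. A second deposited table, a normalized signal of set 1 from edgeR (3.16.5), served only to recompute the SP differences of that set. All columns were assigned to samples. Every value is a whole number of steps, 1 step being the worth of 1 read, and 100% of values gave whole reads on division (tolerance 0.01 of a read). Depth and counting error were taken from these reads. PCR copies are not independent molecules, so they cover counting error only.

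Values were transformed to log2(value + 1), which understates fold changes of low genes, and fitted in R 4.3.3 by limma 3.58.1 (functions lmFit and eBayes, with trend), leaving out genes whose values sum to less than 10. SP was compared with scr over 3 sets, averaging libraries 1a, 1b and 1c to 1 sample (15970 genes). For edgeR and DESeq2 the reads of 1a, 1b and 1c were summed instead. The 5 siRNA groups of sets 2 and 3 shared 1 fit (16490 genes). A gene counted as called when its p, adjusted by Benjamini-Hochberg over all genes, was under 0.05. Same-numbered samples deviated together from their group means (mean r = 0.79, 0.76 to 0.82, over 3 pairs), so the numbers pair the samples and each result was also fitted with the set as a replicate block. Alternatives were edgeR 4.0.16 and DESeq2 1.42.0 on the recovered reads, a pseudocount of 10, no filter, single SP libraries in set 1, untreated and luciferase as further controls, and each library left out.

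The 8 genes, the wider list and the markers were chosen with earlier results of these data known. Genes named from the wider list are those called against scr or for 5p against 3p, with or without the block, at most the 10 with the smallest p, and for likeness to *Socs3* the 5 with the highest correlation. Added after values had been seen were the blocked fits without single libraries, the blocked fit with the further controls, the counts of genes whose groups do not overlap and the heptamer count. Promoter sequences and positions are from RefSeq (GRCm38.p6), gene positions and 3′ UTRs from GENCODE vM21. All 8 genes matched a promoter.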

Additional observations from a re-analysis of the deposited data

Results flagged for a closer look

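*Lifr* in SP library 1c was far from the other SP libraries, with a log2 ratio to scr of −1.09, and its gap to the nearest SP library took 0.802 of the range of the 5 libraries. Chance alone sets about 1 in 20 groups of samples apart in this way. Library 1c also had the lowest *Socs3*, *Stat3*, *Pim3* and *Bcl3* of the SP libraries in set 1. It had the fewest reads on genes of all libraries (9023224) and the highest share on *Rn45s* (79.1%). The part of depth in these values was not tested. Without set 1 the SP difference of *Lifr* was −0.55, against −0.57 over 3 sets.

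*Lifr* and *Stat3* differed between a pair of reagents against the same gene. The log2 difference of 5p from 3p with the replicate block was 0.63 for *Lifr* and 0.49 for *Stat3*.

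*Il6st* moved in opposite directions with SP in different sets. Its mean log2 ratio to scr was −0.52 over the 3 SP libraries of set 1 and 0.15 over the SP libraries of sets 2 and 3, with every library on its own side. This difference was not tested. Set 1 also has fewer reads and more *Rn45s* than the other sets, and their part in the difference was not tested.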

How the results depend on the processing

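Without the replicate block 0 of the 8 genes were called. With the replicate block limma called 1 for SP in sets 2 and 3, 1 for 3p, 1 for SATS, 1 for 5p and 2 for 5p against 3p. With the block edgeR called 1, 1, 1, 1 and 2 in the same order, against 0.813%, 0.303%, 3.34%, 2.41% and 3.21% of all genes. DESeq2 called 1, 1, 1, 1 and 3, against 1.32%, 0.867%, 5.15%, 3.1% and 3.61%. For SP over 3 sets edgeR and DESeq2 each called 1 with the block, where limma called 0. With untreated and luciferase as further controls and the block the calls were 1 for SP, 2 for 3p, 1 for SATS and 1 for 5p, against 2.32%, 1.31%, 10.7% and 6.71% of all genes. Without the block, a pseudocount of 10, no filter on low values and single SP libraries in set 1 left the count at 0 of the 8. These alternatives were not fitted with the block, so they say nothing about the calls made with it.

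Directions turned in differences that were not called. On the reads *Stat3* with SP in sets 2 and 3 was −0.0050 with edgeR, and *Pim3* was −0.0036 with edgeR and the block. With the further controls, with and without the block, *Pim3* was −0.084 with SP and −0.073 with SATS, and *Il6st* was 0.0079 with 3p and 0.031 with 5p.

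Leaving out each library in turn, with and without the block, gave 0 to 1 calls for SP over 3 sets (without each set), 3p, 5p and SATS and 0 to 3 for 5p against 3p. Differences whose sign turned on some omission are given by their lowest and highest log2 values over both fits. Without the block, leaving 1 library of a set out puts the level of that set into the difference between reagents. Of the 48 differences of the 8 genes, 26 turned sign without the block and 14 with it. For SP over 3 sets *Il6st* ran from −0.18 to 0.15, *Stat3* from −0.29 to 0.0078 and *Pim3* from −0.53 to 0.0036. For SP in sets 2 and 3 *Stat3* ran from −0.16 to 0.17, *Socs3* from −0.87 to 0.37, *Pim3* from −0.21 to 0.22 and *Bcl3* from −0.86 to 0.23. For 3p *Il6st* ran from −0.16 to 0.10, *Socs3* from −0.95 to 0.44, *Pim3* from −0.43 to 0.12 and *Bcl3* from −0.92 to 0.25. For SATS *Il6st* ran from −0.39 to 0.031, *Jak1* from −0.021 to 0.26, *Stat3* from −0.28 to 0.047, *Socs3* from −0.66 to 0.21, *Pim1* from −0.29 to 0.051, *Pim3* from −0.12 to 0.14 and *Bcl3* from −0.60 to 0.29. For 5p *Lifr* ran from −0.12 to 0.15, *Il6st* from −0.22 to 0.20, *Socs3* from −0.073 to 0.68, *Bcl3* from −0.67 to 0.30 and *Junb* from −0.91 to 0.015. For 5p against 3p *Il6st* ran from −0.19 to 0.23, *Socs3* from −0.14 to 1.25, *Pim3* from −0.33 to 0.22, *Bcl3* from −0.43 to 0.73 and *Sgk1* from −0.0033 to 0.65. With the block *Socs3* ran only from −0.42 to −0.090 and *Bcl3* from −0.58 to −0.042 with SP in sets 2 and 3, *Socs3* from 0.29 to 0.82 for 5p against 3p, and the signs of *Junb* with 5p and *Sgk1* for 5p against 3p were kept. Of the differences that turned sign with the block, *Il6st* with SP over 3 sets went farthest past 0, to 0.15 without set 1. With 1 library left in an arm, that library is taken to vary like the other groups. With 2 libraries per group, set 1 of lower depth and 1 library each of untreated and luciferase, small differences were not detectable.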
